A study of Homo sapiens with 6 samples.

Results

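The small GTPases of the ARF and ARL families, the few RAB and TBC1D genes and the partner genes that carry a RAB or ARL name were compared between spheroids of 2 colorectal cancer cell lines. Members were all features of the deposited table whose gene symbol starts with RAB and a digit, RAB3GAP, ARL and a digit or TBC1D and a digit, or is ARF1 to ARF6, with the feature of the highest mean standing for a gene. This gave 35 genes on 37 features, of 14884 genes in all. The labels give the primary tumour as the origin of SW480 and a metastasis in a lymph node as that of SW620. Both lines were grown as sphere cultures without serum, in medium supplied with growth factors. The stated purpose was to find how the tumour-initiating compartment differs between the lines. Each line was measured on 3 arrays that the design text calls technical replicates, so p-values measure only the spread between such arrays. Each group is a single established line, and neither sorted cells nor adherent cultures were among the arrays. RNA came from whole spheres, so fewer cells of a type and less RNA per cell cannot be told apart.

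Of the 53616 deposited features 37518 had no gene symbol in the annotation used here, so a gene is called measured only where a feature was named for it, and others may be among the unnamed features. Of the 35 genes, 13 are ARF or ARL GTPases and 1 is a RAB GTPase, RAB6D. A further 15 are partners named after a RAB or ARL protein, 2 are coding TBC1D genes and 4 are non-coding transcripts. The best-known RAB GTPases, such as those of early endosomes, late endosomes and recycling endosomes, were not analysed here.

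RAB, ARF and ARL proteins are molecular switches that sit on a membrane when bound to GTP and leave it when bound to GDP. Exchange factors load them with GTP, GTPase-activating proteins with a TBC or another catalytic domain switch them off, and effectors read the active form to bud, move, tether or fuse vesicles. ARF proteins mainly recruit coats and lipid enzymes at the Golgi and the plasma membrane. Several ARL proteins instead serve the primary cilium, where they deliver lipid-anchored proteins and recruit the BBSome, a coat for ciliary membrane cargo.

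Values are RMA expression values on a log2 scale, a difference is SW620 minus SW480, and a gene was called higher or lower when limma's adjusted p, over all 14884 genes, was below 0.05. The array medians lay between 4.04 and 4.07, and over features r was 0.988 to 0.992 within a line and 0.963 to 0.965 across lines. For the 35 genes the median SD over the 3 arrays was 0.0644 for SW480 and 0.105 for SW620. Of 9 measured epithelial markers of colorectal cells 7 were brighter than the median feature (4.06), with KRT18 at 11.55 and 11.67 and EPCAM at 9.71 and 9.61 in SW480 and SW620, while KRT20 and CDX1 were not. Of the 9, 3 rose (VIL1 by 0.62, KRT19 by 0.51 and KRT8 by 0.40), and the intestinal transcription factor CDX2 was 2.90-fold lower in SW620 (-1.54, adjusted p = 2.95e-08). Their mean, over members going both ways, was 6.91 to 6.99 on the SW480 arrays and 6.92 to 6.97 on the SW620 arrays, and the part of these marker differences in the results below was not tested. All 4 measured endothelial markers and the leukocyte marker CD14 lay below the median feature, and the other measured leukocyte markers, CD68 and LAPTM5, differed by 0.43 and -0.41. Of 2 measured fibroblast markers DCN was near the floor in both lines (3.09 and 3.26), while LUM rose from 4.73 to 7.95. The mean over each list ran, in SW480 and SW620, from 3.56 to 3.73 and 3.59 to 3.69 for endothelial, 5.25 to 5.30 and 5.26 to 5.33 for leukocyte, and 3.74 to 4.11 and 5.55 to 5.67 for fibroblast markers. The part of LUM-expressing cells in the results below was not tested.

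In SW620 spheroids 10 of the 35 genes were higher, 7 were lower and 18 did not pass the test. The largest rise was in TBC1D32, a gene needed for cilium structure and Hedgehog signalling, at 2.57-fold. It was followed by the GTPase ARL15 (1.80-fold) and the ARL2 and ARL3 binding protein ARL2BP (1.74-fold). The largest falls were in the RAB11 effectors RAB11FIP2 (1.51-fold lower) and RAB11FIP4 (1.49-fold lower). The called share of 48.6% stands beside 35.6% of all genes tested. By family it was 60% of 5 ARF GTPases, 37.5% of 8 ARL GTPases and 60% of 5 ARL partners. Of 5 RAB11 family interacting proteins 60% were called, and of 4 genes grouped by name as RAB3 regulators 25%, each a share of few genes. Of the 31 members brighter than the median feature 17 were called, or 54.8%, beside 49.7% of all genes brighter than it. The 2 shares are near each other, though that background takes in every level above the median feature. Rises made up 28.6% of the members against 16% of all genes, and falls 20% against 19.5%. These shares of all genes include dim genes, which are called less often, and the split by direction was not compared with genes of like brightness.

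**Figure D1:**
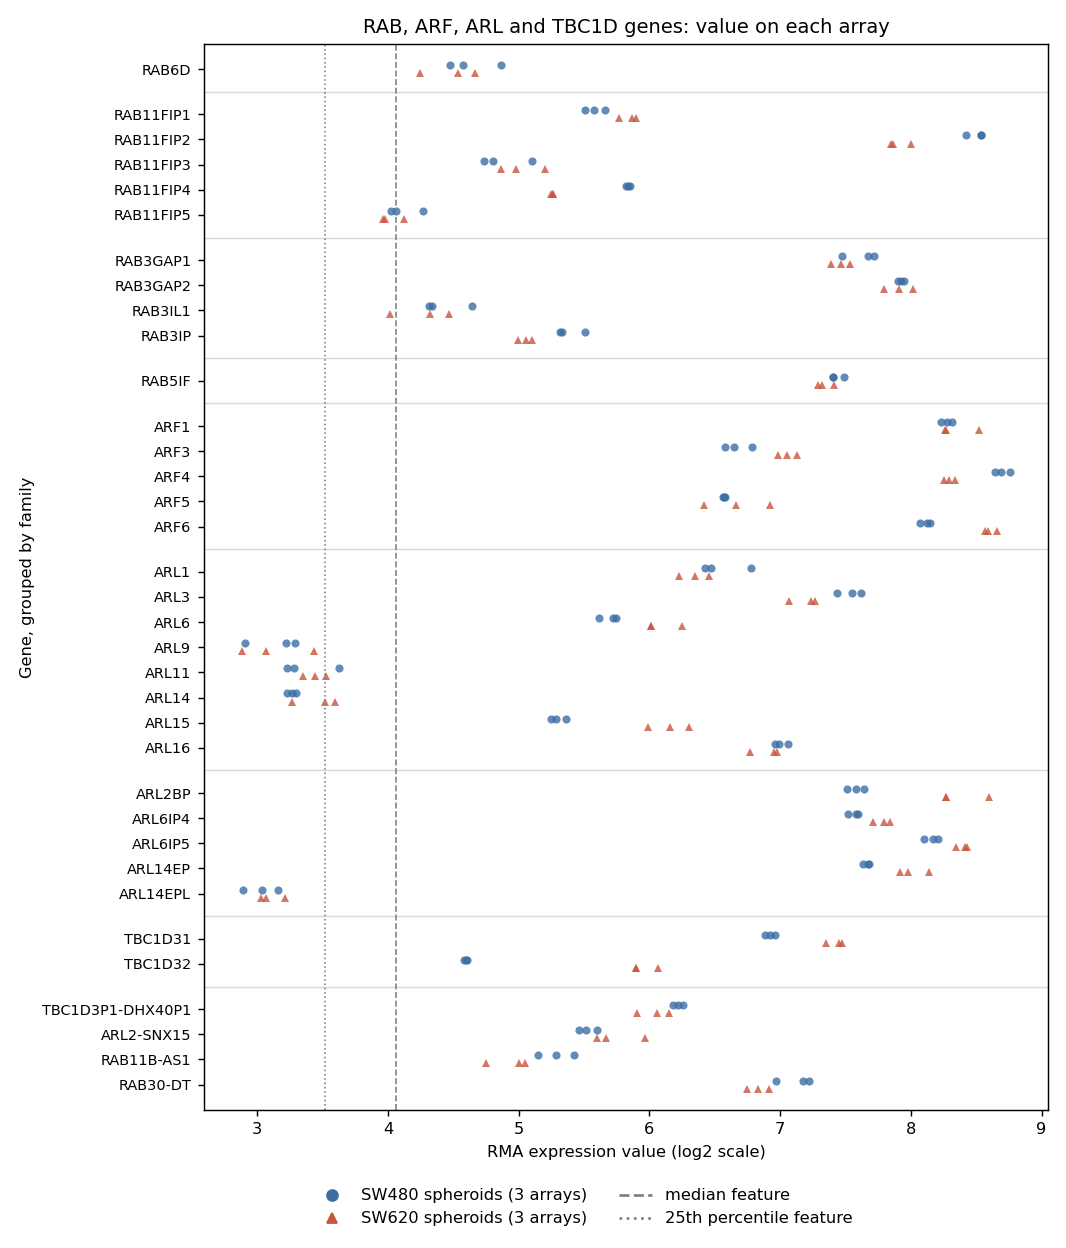
Value of each of the 35 genes on each array (x axis, RMA value on a log2 scale; circles, 3 SW480 arrays; triangles, 3 SW620 arrays), grouped by family, with the median feature (4.06) dashed and the 25th percentile feature (3.52) dotted. TBC1D32 shows the widest gap, from 4.59 to 5.95 on average, and ARL9, ARL11, ARL14 and ARL14EPL have means below the dotted line in both cell lines.

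The differences were small. A difference of at least 1.5-fold was called for 4 members, or 11.4%, against 14.4% of all genes, and at least 2-fold for 1, against 6.07%. At 1.5-fold 3 members were higher, where 5.78% of all genes were, and 1 was lower, where 8.62% were. None of the 4 members dimmer than the median feature was called, beside 10.5% of all such genes. The median size of the difference was 0.22 over the 35 genes and 0.17 over all genes, and the median difference was 0.06 and 0.01. The smallest called difference was 0.24, in ARL6IP5, and the largest that did not pass was 0.22. TBC1D32 ranked 490 of 14884 genes by the size of its difference. The 3 arrays of a line lay wholly above or below those of the other for 20 of the 35 genes (57.1%), beside 45.7% of all genes. The values for all genes include dim genes, and neither this share nor the median size was compared with genes of like brightness.

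**Figure D2:**
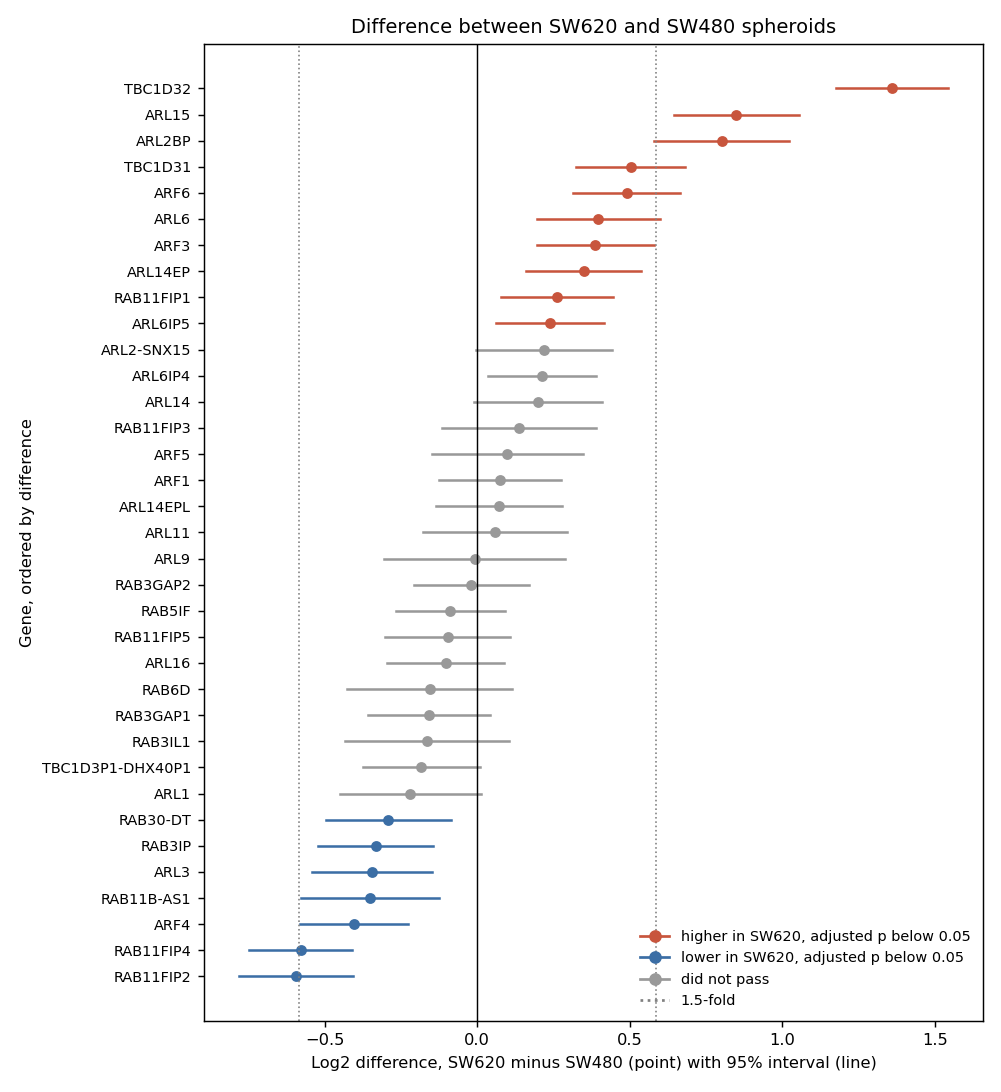
Log2 difference of each gene (x axis, SW620 minus SW480, point) with its 95% interval from limma's standard error, not adjusted for the number of genes; red and blue mark genes called higher and lower, grey those that did not pass, and dotted lines mark 1.5-fold. TBC1D32 (1.36) stands at the top and RAB11FIP2 (-0.59) at the bottom, and the 18 grey genes lie between -0.22 and 0.22.

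Among the ARF GTPases, ARF6 and ARF3 rose, ARF4 fell, and ARF1 and ARF5 did not pass. ARF6 acts at the plasma membrane in endocytic recycling and actin remodelling. It read 8.07, 8.13 and 8.15 on the SW480 arrays and 8.66, 8.57 and 8.59 on the SW620 arrays, so the lines did not overlap (0.49, standard error 0.0805, adjusted p = 0.000327). ARF4, a Golgi ARF that also sorts cargo for the cilium, moved the other way. Its values were 8.69, 8.64 and 8.76 in SW480 and 8.34, 8.26 and 8.29 in SW620 (-0.40, standard error 0.0812, adjusted p = 0.00157). The lowest SW480 array was thus above the highest SW620 array.

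ARF3, a trans-Golgi ARF, was measured on 2 features. The brighter read 6.58, 6.78 and 6.65 in SW480 and 6.99, 7.05 and 7.13 in SW620, a rise of 0.39 (adjusted p = 0.00373). On the dimmer feature ARF3 rose from 5.30 to 5.94, by 0.64 (adjusted p = 0.000269 over the 16098 features with 1 symbol). Both features thus rose, and the size depends on which is read. ARF1, the main recruiter of the COPI coat, read 8.32, 8.27 and 8.23 in SW480 and 8.52, 8.27 and 8.27 in SW620. Those arrays overlapped, and the 95% interval of the difference ran from -0.13 to 0.28. ARF5 varied little between SW480 arrays (6.57, 6.56 and 6.58) and more between SW620 arrays (6.41, 6.66 and 6.92), with an interval from -0.15 to 0.35. Of these 5 GTPases 2 were therefore higher, 1 lower and 2 not passed.

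Of 8 measured ARL GTPases, ARL15 and ARL6 rose, ARL3 fell and 5 did not pass. ARL15, an ARL known from genetic links to adiponectin and insulin traits, had the largest difference of any GTPase here. It read 5.36, 5.25 and 5.29 in SW480 and 6.15, 6.30 and 5.99 in SW620 (0.85, standard error 0.0949, adjusted p = 1.16e-05). Every SW620 array was above every SW480 array, and the gap between the lines was wider than the spread within SW620 (SD 0.156, n = 3).

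ARL6, also called BBS3, brings the BBSome to ciliary membranes, and its loss causes Bardet-Biedl syndrome. It read 5.72, 5.62 and 5.75 in SW480 and 6.01, 6.25 and 6.01 in SW620 (0.40, adjusted p = 0.00442). ARL3, which releases lipid-anchored cargo inside the cilium, read 7.43, 7.55 and 7.62 in SW480 and 7.26, 7.24 and 7.07 in SW620. Its difference was -0.34 (adjusted p = 0.00913), so these ciliary ARL GTPases moved in opposite directions and neither pair of array groups overlapped.

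ARL1, which anchors golgins on the trans-Golgi, read 6.78, 6.47 and 6.43 in SW480 and 6.45, 6.22 and 6.35 in SW620. SW480 replicate 1 was the highest and the groups overlapped (-0.22, adjusted p = 0.14). ARL16, an ARL of the Golgi and cilium, differed by -0.10 (6.96 to 7.06 in SW480 and 6.77 to 6.98 in SW620, overlapping). ARL9, ARL11 and ARL14 had means over all arrays below the 25th percentile feature, with values from 2.88 to 3.62 on all 6 arrays. For these genes a difference could not be told from the floor of the arrays. ARL14, which moves MHC class II vesicles, differed by 0.20 (adjusted p = 0.137) and passed only without SW620 replicate 1 (0.30, adjusted p = 0.0283).

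RAB6D, the only RAB GTPase among the named features, is a close copy of the Golgi GTPase RAB6A, so its probes may also read its relatives and its level is uncertain. It read 4.86, 4.47 and 4.58 in SW480 and 4.67, 4.24 and 4.53 in SW620. The groups overlapped, and the 95% interval of the difference ran from -0.43 to 0.11.

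Both coding TBC1D genes rose. TBC1D32, known as BROMI, works in the cilium with a cell cycle-related kinase. On SW480 arrays it read 4.60, 4.60 and 4.58 and on SW620 arrays 5.89, 5.90 and 6.07. The mean went from 4.59 ± 0.00886 (SD, n = 3) to 5.95 ± 0.0984 (n = 3), a difference of 1.36 (standard error 0.0843, adjusted p = 4.2e-08). In SW480 this level lay only a little above the median feature (4.06), where RMA can understate a fold.

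TBC1D31, a protein of the centriolar satellites around the centrosome, read 6.92, 6.88 and 6.96 in SW480 and 7.48, 7.35 and 7.45 in SW620. Its difference was 0.50 (standard error 0.0820, adjusted p = 0.000302), again with no overlap. The TBC1D symbol TBC1D3P1-DHX40P1 belongs to a transcribed pseudogene and is given with the non-coding transcripts.

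None of the genes grouped by name as RAB3 regulators was called higher. RAB3GAP1 and RAB3GAP2 form a complex that switches off RAB3 and also loads RAB18. RAB3GAP1 read 7.47, 7.67 and 7.72 in SW480 and 7.39, 7.47 and 7.53 in SW620 (-0.16, adjusted p = 0.219). For RAB3GAP2 the values were 7.93, 7.90 and 7.95 against 7.79, 7.91 and 8.02, with a 95% interval of the difference from -0.21 to 0.17. The arrays of both genes overlapped between the lines.

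RAB3IP, also called Rabin8, is the exchange factor that RAB11 brings to the base of the cilium to load RAB8. It fell, from 5.50, 5.33 and 5.32 in SW480 to 5.06, 4.99 and 5.10 in SW620 (-0.33, adjusted p = 0.00889), with no overlap. Its relative RAB3IL1, known as GRAB, read 4.64, 4.34 and 4.31 in SW480 and 4.47, 4.32 and 4.02 in SW620 (-0.16, adjusted p = 0.352, overlapping). Of the 4 genes grouped by name as RAB3 regulators 3 did not pass, and the 1 that fell was RAB3IP, described above as loading RAB8. RAB5IF, a small membrane protein named for RAB5 binding, read 7.40 to 7.49 in SW480 and 7.29 to 7.42 in SW620 (-0.09, adjusted p = 0.465).

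The RAB11 family interacting proteins link RAB11 on recycling endosomes to motors and membranes. Class I members carry a C2 domain and class II members carry EF hands. Of 3 class I members RAB11FIP2 fell, RAB11FIP1 rose and RAB11FIP5 did not pass. Of 2 class II members RAB11FIP4 fell and RAB11FIP3 did not pass.

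RAB11FIP2, which ties RAB11 to the motor myosin Vb, read 8.54, 8.54 and 8.43 in SW480 and 8.0, 7.87 and 7.85 in SW620 (-0.59, standard error 0.0854, adjusted p = 0.000108). RAB11FIP4 read 5.82, 5.85 and 5.84 against 5.26, 5.25 and 5.26 (-0.58, standard error 0.0780, adjusted p = 6.21e-05). Its SDs of 0.0154 in SW480 and 0.00955 in SW620 (n = 3 each) were below those of the median gene (0.0955 and 0.105). In both genes the whole SW480 group was above the whole SW620 group.

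RAB11FIP1, known as RCP and involved in integrin recycling, read 5.57, 5.51 and 5.66 in SW480 and 5.77, 5.90 and 5.86 in SW620 (0.26, adjusted p = 0.0288). That call was lost without SW480 replicate 1 (adjusted p = 0.0696), SW480 replicate 2 (0.114), SW620 replicate 2 (0.0909) or SW620 replicate 3 (0.0637), at differences from 0.23 to 0.26. RAB11FIP3, which acts at the midbody and centrosome, overlapped between the lines (4.73 to 5.10 and 4.86 to 5.20, 0.14, adjusted p = 0.409). So did RAB11FIP5 (4.02 to 4.26 and 3.96 to 4.12, -0.10, adjusted p = 0.479), which lay at about the median feature.

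Of 5 measured partners with an ARL name, 3 rose and 2 did not pass. ARL2BP, also called BART, binds active ARL2 and ARL3 and is found at the centrosome and the cilium base. Its brighter feature read 7.64, 7.51 and 7.58 in SW480 and 8.27, 8.60 and 8.27 in SW620 (0.80, standard error 0.102, adjusted p = 3.85e-05). The other feature of ARL2BP read 5.60, 5.22 and 5.42 against 6.13, 6.24 and 6.23, a rise of 0.79 (adjusted p = 5.12e-05 over the 16098 features with 1 symbol). Both features thus gave about the same difference with no overlap.

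ARL14EP, the effector that joins ARL14 to an actin motor, read 7.67, 7.68 and 7.64 in SW480 and 8.14, 7.98 and 7.92 in SW620 (0.35, adjusted p = 0.00638). Its relative ARL14EPL lay at the floor (2.89 to 3.16 and 3.03 to 3.21). ARL6IP5, a membrane protein of the endoplasmic reticulum, read 8.17, 8.21 and 8.10 against 8.41, 8.43 and 8.34 (0.24, adjusted p = 0.037), without overlap. Leaving out any array except SW620 replicate 3 ended this call, with adjusted p from 0.0590 without SW480 replicate 2 to 0.124 without SW480 replicate 3. The others gave 0.0745 without SW480 replicate 1, 0.0884 without SW620 replicate 1 and 0.0984 without SW620 replicate 2. ARL6IP4, a nuclear protein with a role in splicing, read 7.60, 7.58 and 7.52 against 7.71, 7.79 and 7.84 (0.21, adjusted p = 0.0608), and did not pass although its arrays did not overlap.

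The 4 non-coding transcripts are named after neighbouring genes or after the genes they join, and 2 of them fell. RAB11B-AS1, antisense to RAB11B, read 5.42, 5.15 and 5.29 in SW480 and 5.05, 5.0 and 4.75 in SW620 (-0.35, adjusted p = 0.0178). Without SW480 replicate 1 its adjusted p was 0.0775 and without SW620 replicate 3 it was 0.0722. RAB30-DT, transcribed divergently from RAB30, read 6.97, 7.17 and 7.22 against 6.83, 6.92 and 6.74 (-0.29, adjusted p = 0.0283). It missed the threshold without SW480 replicate 2 (0.0961), SW480 replicate 3 (0.113), SW620 replicate 1 (0.0637) or SW620 replicate 3 (0.0895). The arrays of both transcripts were lower in SW620 without overlap. The readthrough ARL2-SNX15, whose probes may also read its parent genes, read 5.46 to 5.60 against 5.60 to 5.97 (0.22, adjusted p = 0.124). The pseudogene readthrough TBC1D3P1-DHX40P1 read 6.18 to 6.26 against 5.90 to 6.15 (-0.18, adjusted p = 0.133), and its probes may read other TBC1D3 copies. Neither readthrough passed, although the arrays of each did not overlap between the lines.

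**Figure D3:**
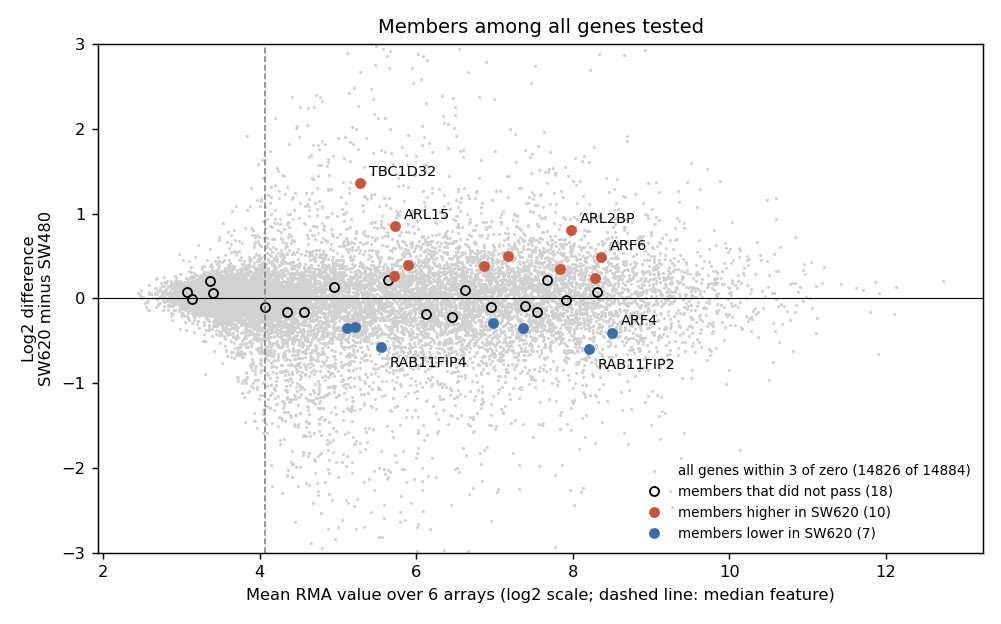
Log2 difference (y axis, SW620 minus SW480) against mean RMA value over 6 arrays (x axis, log2 scale) for all genes tested (grey, drawn where the difference lies within 3 of zero) and for the members (filled red, 10 higher; filled blue, 7 lower; open, 18 not passed). The members lie within the cloud of all genes, with TBC1D32 (1.36) the farthest from zero, and none of the 4 members left of the dashed median feature was called.

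The upstream promoter sequences of the 5 coding members with the largest called differences, among those matched to RefSeq's promoter table (GRCh38.p14), are given because these genes carry the differences above. Of the 35 genes 27 were matched, and ARL2BP, RAB11FIP4, TBC1D31 and ARF4 were not among them. Each is the 250 bases before the most upstream RefSeq start, on the gene's strand, in lower case, and capitals mark motifs searched on both strands. The cyclic AMP response element was searched as TGACGTCA and the core read by RFX factors as GTTGCC. The CCAAT box was searched by its name's letters and the GC box as GGGCGG. The E-box was searched as CACGTG, and the TATA box as TATAAA. No match overlapped another here.
TBC1D32, chr6:121334730-121334979, minus strand: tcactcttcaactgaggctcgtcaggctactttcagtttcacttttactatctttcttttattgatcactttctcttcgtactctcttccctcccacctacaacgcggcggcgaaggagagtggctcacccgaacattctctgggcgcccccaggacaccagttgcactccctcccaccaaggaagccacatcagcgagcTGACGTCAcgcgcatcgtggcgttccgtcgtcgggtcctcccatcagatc
ARL15, chr5:54310574-54310823, minus strand: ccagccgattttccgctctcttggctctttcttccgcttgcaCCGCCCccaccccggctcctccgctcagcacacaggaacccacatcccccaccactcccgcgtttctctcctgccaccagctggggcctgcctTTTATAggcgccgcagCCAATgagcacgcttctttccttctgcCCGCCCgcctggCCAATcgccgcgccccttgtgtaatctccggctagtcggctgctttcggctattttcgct
ARF6, chr14:49892832-49893081, plus strand: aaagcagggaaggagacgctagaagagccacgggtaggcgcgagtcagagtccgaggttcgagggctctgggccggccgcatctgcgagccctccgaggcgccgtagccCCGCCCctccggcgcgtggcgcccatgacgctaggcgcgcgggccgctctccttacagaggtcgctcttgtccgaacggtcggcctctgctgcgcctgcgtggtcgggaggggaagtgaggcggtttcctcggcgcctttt
ARL6, chr3:97764271-97764520, plus strand: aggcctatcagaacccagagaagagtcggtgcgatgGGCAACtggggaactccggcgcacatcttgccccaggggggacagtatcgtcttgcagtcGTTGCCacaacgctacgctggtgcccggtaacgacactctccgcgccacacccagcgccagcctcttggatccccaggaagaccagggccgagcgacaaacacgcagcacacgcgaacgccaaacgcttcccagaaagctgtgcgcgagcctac
RAB11FIP2, chr10:118046942-118047191, minus strand: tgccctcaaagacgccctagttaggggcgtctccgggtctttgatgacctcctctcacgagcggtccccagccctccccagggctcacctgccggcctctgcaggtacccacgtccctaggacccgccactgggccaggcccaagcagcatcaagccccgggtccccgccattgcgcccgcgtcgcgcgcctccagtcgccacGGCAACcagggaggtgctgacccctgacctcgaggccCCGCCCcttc

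The windows of the members that rose differed from each other in these motifs. TBC1D32 holds the full cyclic AMP response element, beginning 50 bases before the start, and no other motif searched, and 1.75% of 27305 promoters of this length hold TGACGTCA. Besides TBC1D32 it was found in RAB11FIP3 and RAB5IF, which did not pass, so it lies in 3 of 27 member windows (11.1%). ARL15 holds CCAAT at 99 and 60 bases before the start, a GC box at 208 and 72, and TATAAA on the other strand at 115. CCAAT is in 44.4% of the member windows and 33% of all promoters, and TATAAA in 11.1% and 11.2%. The GTTGCC core of RFX factors, which control many ciliary genes, occurs in ARL6 at 214 and 154 bases and in RAB11FIP2 at 47. It was also found in the window of ARF5, which did not pass. This core is in 11.1% of the member windows and 10.1% of all. The GC box is in 74.1% of the member windows and 42.2% of all, and the E-box in 11.1% and 6.46%. The GC content was 63.2% in the median member window and 57.6% in the median promoter. These are matches of letters and were not tested as binding sites.

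The other genes of the switch machinery were taken from lists of regulators and effectors, of which 165 of 223 were measured. Of these 38 rose, 47 fell and 80 did not pass, so 51.5% were called beside 35.6% of all genes, with a median difference of -0.05. As with the members, most were brighter than the median feature (146 of 165), and 82 of those 146 were called, where 49.7% of all such genes were. By list, 51.2% of RAB exchange factors, 53.2% of RAB effectors and 40% of other RAB GAPs were called. For ARF exchange factors the share was 50%, for ARF and ARL GAPs 66.7% and for the list of their effectors and associated genes 46.2%. Above the median feature these were 21 of 38, 23 of 40, 4 of 9, 8 of 14, 10 of 15 and 12 of 24, in that order.

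Of 4 measured chaperone and prenylation genes 2 rose and 1 fell. RABAC1, which helps place RAB proteins on membranes, was 3.36-fold lower in SW620 (-1.75, standard error 0.101). CHML, an escort for prenylation of RAB proteins, was 1.92-fold higher, and RABIF, a chaperone of nucleotide-free RAB proteins, 1.27-fold higher. Of 43 RAB exchange factors 8 rose and 14 fell. DENND2C was 4.25-fold lower, with an SW620 mean (3.30) below the 25th percentile feature. MON1B, part of the exchange factor for RAB7, was 4.0-fold higher, and DENND1C, of a family acting on RAB35, 2.11-fold lower. Of 10 other RAB GAPs 1 rose and 3 fell, with USP6NL 1.71-fold and GRTP1 1.63-fold lower and RABGAP1L 1.34-fold higher.

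Of 47 measured RAB effectors 12 rose and 13 fell. RIMS2, a RAB3 effector of synaptic release sites, was 2.75-fold lower with an SW620 mean of 3.08, near the floor. The RAB27 effectors SYTL2 (2.32-fold, with an SW620 mean of 3.69, below the median feature) and EXPH5 (2.25-fold) were also lower. Other genes of this kind rose, with SYTL4 by 0.76, SYTL5 by 0.72 and SYTL3 by 0.34. Their SW480 means (3.99, 3.63 and 4.02) lay below the median feature (4.06). RPH3AL (0.75), UNC13D (0.61) and MYRIP (0.30) were higher as well, while SYTL1 and MLPH did not pass. UNC13D and MYRIP also had SW480 means below the median feature (4.04 and 3.96). The MYRIP arrays overlapped between the lines, and its call was near the threshold (adjusted p = 0.0467). Neither RAB-like GTPase that was measured passed, and IFT27, a RAB-like subunit of intraflagellar transport, differed by -0.21 (adjusted p = 0.0612). Of the SAR1 GTPases of the COPII coat, SAR1A rose 1.34-fold and SAR1B did not pass.

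Of 16 ARF exchange factors 5 rose and 3 fell. CYTH3, an exchange factor for ARF6 and ARF1 that binds phosphoinositides, was 3.29-fold lower (-1.72, standard error 0.0839), while ARF6 itself rose by 0.49. Its relative CYTH1 rose by 0.36, and CYTH2 and CYTH4 did not pass. PSD2, of a family acting on ARF6, was 2.36-fold higher from an SW480 mean of 3.97, below the median feature. PSD4 of that family rose by 0.83, and PSD and PSD3 did not pass. ARFGEF3 was 1.91-fold lower. Of 15 measured ARF and ARL GAPs 5 rose and 5 fell, with ELMOD2 1.67-fold and AGFG2 1.56-fold lower and RP2 1.56-fold higher.

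**Figure D4:**
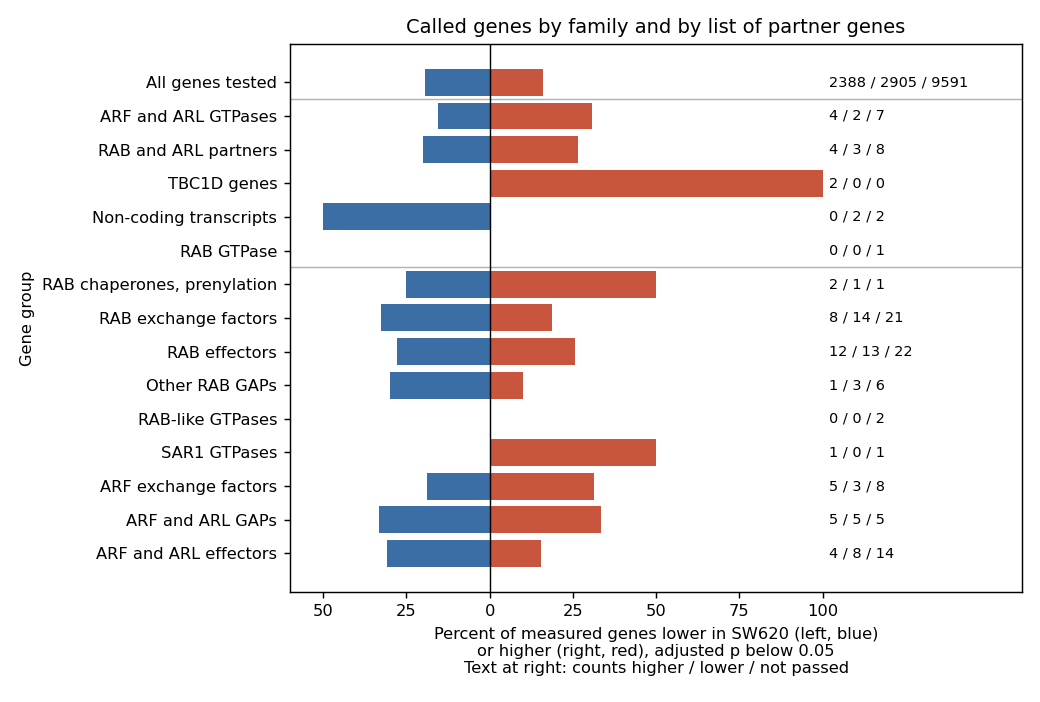
Percent of measured genes called lower (blue, left) or higher (red, right) in SW620 for all genes, for the member families and for the lists of partner genes, with the counts higher, lower and not passed written at the right. The ARF and ARL GTPases hold 4 higher and 2 lower of 13, and the RAB exchange factors 8 higher and 14 lower of 43.

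Of 26 measured genes on the list of ARF and ARL effectors 4 rose and 8 fell. The largest differences were in BBS5, BBS7 and the phospholipase PLD2 (1.91-fold lower). This list also takes in associated genes that are not themselves effectors, among them BBS10, which fell, and TBCE, which rose. The partners of ARL6 and ARL3 within these lists were set beside the GTPases after their values had been seen. ARL6 rose by 0.40, and of 8 subunits of the BBSome it recruits, BBS4 rose, BBS5, BBS7 and BBS9 fell, and 4 did not pass. All 8 were brighter than the median feature, and the called share of 50% is near the 49.7% of all such genes. BBS5 went from 5.31 to 4.18 (2.19-fold lower), BBS7 from 7.35 to 6.32 (2.04-fold lower) and BBS9 from 5.44 to 4.77 (1.60-fold lower). BBS4 went from 6.98 to 7.75 (1.71-fold higher). For ARL3, which fell by 0.34 on the log2 scale, its GAP RP2 rose by 0.65 and its binding partner ARL2BP by 0.80. Of its cargo carriers UNC119 fell by 0.71 (adjusted p = 4.06e-05) and UNC119B differed by -0.15 (adjusted p = 0.182).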

How the data were processed

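Sense-strand cDNA from total RNA was fragmented, biotin-labelled and hybridised to 6 whole-transcript arrays, 3 per line, per the labels' protocols. The deposited values are log2 expression values from RMA, and the submitters' processing notes also name Partek. For neither is a version given in the sources used here, nor the base of the logarithm, and base 2 was taken from the range (1.99 to 13.9). RMA subtracts background and equalises arrays, which can understate the fold of dim genes.

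Of 53616 features 16098 had exactly 1 symbol and 0 several. The feature with the highest mean stood for each of 14884 genes, with no filter. SW620 was set against SW480 by limma (version 3.58.1, R 4.3.3), using lmFit and eBayes without covariates and a two-sided test. P-values were adjusted by Benjamini-Hochberg across the 14884 genes. The fit was tried on simulated data with independent noise and 200 changed genes, fewer than were called here. That trial checks the fit and does not vouch for the calls. The number of arrays limits the precision.

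Members and lists were chosen with earlier results of these data known. All 35 members are given. From each list up to 3 called genes with the largest difference are named, or the one with the smallest p. Relatives or partners are named beside some of these genes and beside ARL6 and ARL3. Replicate numbers did not pair the arrays.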

Additional observations from a re-analysis of the deposited data

How the results depend on the processing

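Under the 18 alternatives run, 17 gave a count of called members within 1.5 times the 17 reported, from 13 at an adjusted p below 0.01 to 18. The exception was treat with a minimum of 1.2-fold, which tests a stricter hypothesis and called 7 members, 2 ARF and ARL GTPases (6 otherwise), 3 RAB and ARL partners (7 otherwise) and 45 genes of the lists (85 otherwise). Leaving out each array gave 14 to 16 members, 6 to 7 ARF and ARL GTPases, 5 to 6 partners and 75 to 80 list genes, and both TBC1D genes and no RAB GTPase were called each time. No called member changed direction in any alternative run. Of the 17 called, 7 stayed called in all of them (TBC1D32, ARL15, ARL2BP, RAB11FIP2, RAB11FIP4, TBC1D31 and ARF6) and 10 lost the call in at least 1. ARL6IP5 lost it in 10 of 18, among them repeat quantile normalization, cyclic loess and the replicate block. ARL6IP4 gained a call with centring on the 75th percentile, the filter at the median feature or a variance both trended and robust. Centring on the 75th percentile also moved the split over all genes from 2388 higher and 2905 lower to 2686 and 2685.

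With the replicate number as a block 16 members, 6 ARF and ARL GTPases, 2 TBC1D genes, 0 RAB GTPases, 6 partners and 83 list genes were called. The numbers do not pair the arrays, since deviations of same-numbered arrays correlated at 0.0209, -0.0107 and -0.00355 over features, and 2 of 6 arrays correlated best with their own number. Dim members limit the reading, since 4 lay below the 25th percentile feature.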
